A study of Homo sapiens with 4 samples.

Results

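Expression of 10 genes that describe the epithelial or mesenchymal state of a carcinoma cell was examined in lapatinib-resistant breast cancer cells. They were the classical cadherin genes CDH1, CDH2 and CDH3, the transcription factor genes SNAI1, SNAI2, ZEB1, ZEB2 and TWIST1, the intermediate filament gene VIM and the matrix gene FN1. The genes were chosen by name, and every array probe whose RefSeq identifier belonged to one of them was kept, which gave 14 probes for 10 of the 16422 genes named on the array. The samples were parental SkBr3 and BT474 cells labeled as given vehicle and a lapatinib-resistant clone of each line, hereafter the SkBr3 clone and the BT474 clone. SkBr3 and BT474 are human breast cancer lines with amplified HER2, and lapatinib is a small molecule that inhibits the kinases of HER2 and EGFR. The resistant cells had been selected with rising lapatinib concentrations of up to 1 μM, and each line was represented by a single clone, so that a property of that clone and a property of resistance cannot be told apart. For its protein blots the study kept such clones in 1 μM lapatinib, and its array methods do not say whether the drug was present. An effect of lapatinib in the medium and a property of resistance therefore cannot be told apart either. The sample labels give the SkBr3 clone the number 3 and the BT474 clone the number 6, whereas the study's text uses these numbers the other way round, and the clones are therefore named here by their parental line.

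E-cadherin, encoded by CDH1, joins neighboring epithelial cells at adherens junctions and is tied to the actin cytoskeleton by catenins. In the epithelial-mesenchymal transition (EMT) carcinoma cells lose this junction, take up vimentin and fibronectin expression and often exchange E-cadherin for N-cadherin, the product of CDH2, a step known as the cadherin switch. The SNAI, ZEB and TWIST proteins are the classical EMT transcription factors, which bind E-box sequences and repress CDH1, whereas P-cadherin, encoded by CDH3, is normally found in the basal and myoepithelial layer of the breast. SkBr3 is known as a line that lacks E-cadherin, and BT474 grows in compact epithelial colonies.

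The sequences upstream of VIM and FN1 are shown because these genes had the reverse pattern of each other between the lines, and that of CDH2 because it is the cadherin of the switch. Each is the 250 bases before the transcription start in RefSeq (build GRCh38.p14), read 5′ to 3′ on the gene's strand, namely chr10:17227991-17228240 on the plus strand for VIM, chr2:215436069-215436318 on the minus strand for FN1 and chr18:28177131-28177380 on the minus strand for the first of the 2 CDH2 starts. Capitals mark every match, on either strand, to the E-box CANNTG, the CCAAT box CCAAT, the GC box GGGCGG or the cyclic AMP response element TGACGTCA.
VIM: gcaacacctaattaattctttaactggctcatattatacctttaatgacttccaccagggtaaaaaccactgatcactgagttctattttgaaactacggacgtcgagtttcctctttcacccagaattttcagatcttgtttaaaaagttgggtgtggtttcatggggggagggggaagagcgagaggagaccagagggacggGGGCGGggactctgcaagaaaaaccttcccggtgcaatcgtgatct
FN1: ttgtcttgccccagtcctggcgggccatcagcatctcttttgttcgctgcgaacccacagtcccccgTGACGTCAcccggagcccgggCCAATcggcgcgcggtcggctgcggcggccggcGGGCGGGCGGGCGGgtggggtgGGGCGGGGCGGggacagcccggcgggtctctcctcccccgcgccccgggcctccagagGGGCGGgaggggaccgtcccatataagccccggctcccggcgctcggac
CDH2: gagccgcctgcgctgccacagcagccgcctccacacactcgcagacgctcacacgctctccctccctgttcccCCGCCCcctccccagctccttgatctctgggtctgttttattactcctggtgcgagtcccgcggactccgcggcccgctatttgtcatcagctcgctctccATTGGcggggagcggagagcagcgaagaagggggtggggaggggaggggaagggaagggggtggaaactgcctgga
Of the windows of this length in the RefSeq table, 1 per gene for 27305 genes, 62.2% held at least 1 CANNTG, 33% a CCAAT, 42.3% a GGGCGG and 1.77% a TGACGTCA. The VIM window held 1 GGGCGG, beginning 46 bases before the start, and had a GC content of 46%. The FN1 window had a GC content of 76.4% and held 6 GGGCGG, some of them overlapping, with 1 CCAAT beginning at 162 and 1 TGACGTCA at 183 bases before the start. The CDH2 window held the reverse complements of the CCAAT box and of the GC box. The letters CANNTG were in none of these 3 windows, which says nothing about E-boxes elsewhere in the genes. The window of the second CDH2 start, which is not shown, held a CANNTG beginning 97 bases before that start. The table held 5 of the 10 genes, the others being ZEB1 and ZEB2, and the 1 ZEB2 window held a CANNTG beginning 180 bases before the start. Some of the 7 ZEB1 windows held a CANNTG as well. No probe or protein sequence was used here.

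Total RNA was hybridized to 1 Agilent 4 × 44K array per sample, 4 arrays in all, and with 1 array per group no difference between a clone and its parent has a check by replicates. Signals are given as the scanner software's processed Cy3 intensity, before scaling. Fold changes were computed after each array had been divided by its own 75th percentile, which was 1115 in SkBr3, 2074 in the SkBr3 clone, 1158 in BT474 and 1681 in the BT474 clone, and they are therefore smaller or larger than the ratio of the signals shown. A probe that the software did not mark as well above background (66.6% to 74% of the 41000 probes were so marked) was set to the lowest marked signal of its array where it lay under it (13.3 to 16 among the arrays), and the fold change is then a limit, written as at least. No fold is given where both arrays were below this mark or where the limit was under 1. The SkBr3 clone was hybridized alone on a second slide, so that slide and resistance cannot be told apart in the SkBr3 pair, while the BT474 pair and both parental arrays shared a slide. A change was counted from 2-fold. Over all probes with a fold, the SkBr3 clone had a median log2 fold change of -0.12 and the BT474 clone of -0.03, and it moved by 0.16 and by -0.22 when arrays were scaled by their median. Of the probes past 2-fold, 42.9% were higher in the SkBr3 clone (53.1% with median scaling) and 63.4% in the BT474 clone (44.2% with median scaling and 52.9% with quantile normalization). All 9 markers of HER2-positive luminal cells, among them ERBB2, KRT8 and GATA3, were well above background on each of the 4 arrays.

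VIM passed 2-fold in both clones, in opposite directions. The share of all probes past 2-fold in both clones was not computed, so the overlap between the clones is given as a description only. Of the 10 genes, SNAI1 and VIM were at least 2-fold higher in the SkBr3 clone and FN1 was at least 2-fold lower, 3 had smaller differences or limits, and 4 had no fold. The background in that pair, over the 30925 probes well above background on either array, was 11.2% higher and 14.9% lower by the same rule. In the BT474 clone, SNAI2 and TWIST1 were at least 2-fold higher and VIM was at least 2-fold lower, 5 had smaller differences, and ZEB1 and ZEB2 had no fold. The background over the 30753 probes well above background on either array of that pair was 9.68% higher and 5.59% lower. Where shares of all probes are given below, they refer to the probes well above background on either array of the pair. The gene totals of the lists also include genes below background on both arrays. The parental lines stood much farther apart, with CDH1, CDH2, CDH3, TWIST1 and VIM higher in BT474, SNAI1 and FN1 higher in SkBr3, and no fold for the other 3, where 18.3% of 29808 probes well above background in either line were higher in BT474 by 2-fold or more and 18.6% lower. Counts over so few genes are a description of these arrays, and genes without a fold are part of the 10. At least 1 array was well above background for 8 of the 10 genes, counted on the brightest probe of each, with 5 genes so marked in SkBr3, 7 in the SkBr3 clone, 7 in BT474 and 8 in the BT474 clone.

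**Figure D1:**
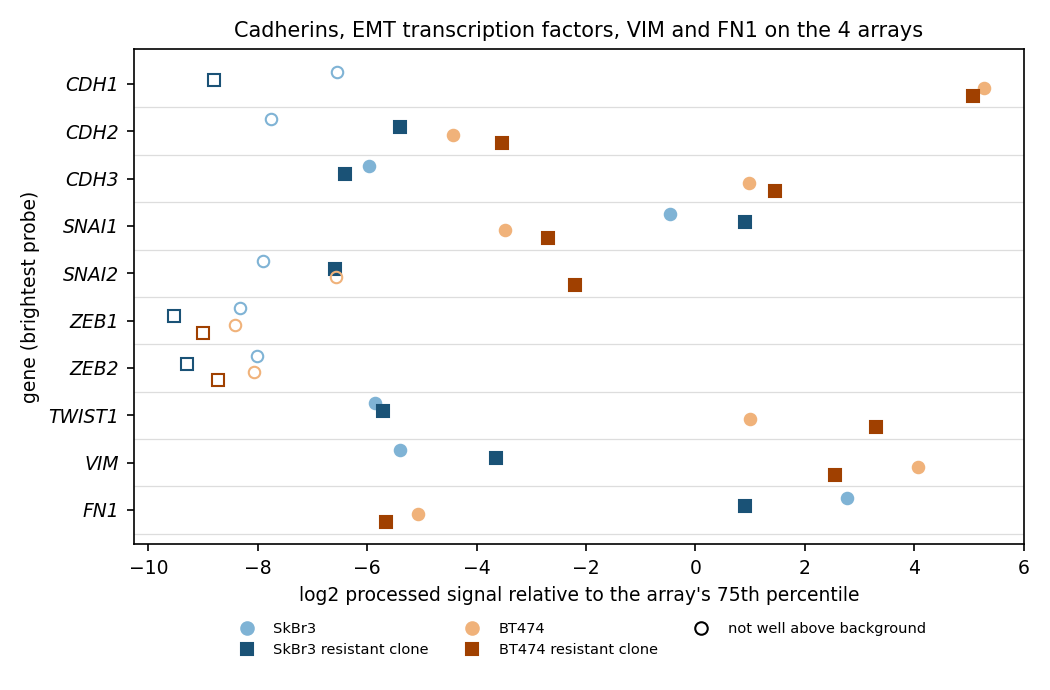
Level of each gene on the 4 arrays, by its brightest probe, as log2 processed signal relative to the 75th percentile of the array. Circles are parental cells, squares are resistant clones and open symbols are not well above background. Within a row, the SkBr3 and BT474 symbols lie far apart for CDH1, CDH3, TWIST1, VIM and FN1, while the clone of a line stays on the side of its parent. Rows cannot be compared with each other, because probes differ in brightness.

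The cadherins differed more between the cell lines than between a clone and its parent. CDH1 had a signal of 44710 in BT474 and 56840 in the BT474 clone, against 11.95 in SkBr3 and 4.66 in the SkBr3 clone, which were both below background. BT474 was thus at least 2687-fold above SkBr3 (log2 of at least 11.39, and 9.38 with normexp correction). The BT474 clone was 1.14-fold lower than its parent after scaling (log2 fold change -0.19), and E-cadherin transcript was therefore neither lost nor changed by 2-fold in the resistant BT474 clone. The CDH1 probe was printed 10 times on each array, and the log2 SD among these spots was 0.05 on both BT474 arrays. In SkBr3 and in the SkBr3 clone 1 of the 10 spots was marked well above background, and the single spots ranged from 7.05 to 18.3 and from 2.92 to 15.48. Neither SkBr3 array thus gave a CDH1 signal that could be distinguished from background.

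CDH2, the N-cadherin gene, was dim wherever it was seen. Its signal was 5.17 in SkBr3, which was below background, 49.1 in the SkBr3 clone, 53.4 in BT474 and 144.1 in the BT474 clone. Both clones were above their parents, by at least 1.65-fold in the SkBr3 clone (log2 of at least 0.72) and by 1.86-fold in the BT474 clone (log2 fold change 0.89), and neither value reached 2-fold. BT474 was at least 3.21-fold above SkBr3, a log2 of at least 1.68 that fell short of 2-fold with normexp correction (0.72). With normexp correction the CDH2 value of the BT474 clone was 0.28. On the same array, CDH1 also differed from its parent by less than 2-fold.

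CDH3 followed CDH1 between the lines. Its signal was 17.8 in SkBr3 and 24.4 in the SkBr3 clone, both close to the lowest signals marked above background, and 2288 in BT474 and 4601 in the BT474 clone. BT474 was 123.7-fold above SkBr3 (log2 6.95, or 5.27 with normexp correction), while the clones differed from their parents by log2 fold changes of -0.44 and 0.47. CDH3 and CDH1 are next to each other in the RefSeq gene order. The other neighboring protein-coding genes with a probe were 3 on the side of CDH3 (ZFP90, SMPD3 and PRMT7) and 2 on the side of CDH1 (HAS3 and CHTF8). Apart from HAS3, which had only a lower limit, each differed less between the lines than the cadherins. ZFP90 was 4.75-fold higher in BT474, HAS3 at least 2.87-fold, SMPD3 1.48-fold, CHTF8 1.41-fold and PRMT7 1.08-fold. No probe was matched to TANGO6, the gene that follows CDH1.

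SNAI1 passed 2-fold in the SkBr3 clone among the EMT transcription factors, and SNAI2 and TWIST1 did so in the BT474 clone. SNAI1, which encodes Snail, a zinc finger repressor of CDH1, had a signal of 802.5 in SkBr3, 3901 in the SkBr3 clone, 103.9 in BT474 and 260.8 in the BT474 clone. It was 2.61-fold higher in the SkBr3 clone (log2 fold change 1.39) and 1.73-fold higher in the BT474 clone (log2 fold change 0.79). SkBr3, the line without CDH1 signal, was 8.03-fold above BT474. The order of the 4 levels relative to the 75th percentile, from high to low, was the SkBr3 clone, SkBr3, the BT474 clone and BT474.

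SNAI2, which encodes the related repressor Slug, was below background in both parents, at 4.68 in SkBr3 and 12.1 in BT474. Its signal was 21.6 in the SkBr3 clone, just above background, and 366.4 in the BT474 clone. The BT474 clone was at least 15.82-fold higher than BT474 (log2 of at least 3.98), and no fold can be given for the SkBr3 clone. The log2 value was 3.05 when 16 was added to each signal and 2.13 with normexp background correction, both of which draw the fold changes of dim probes toward 0. SNAI2 was thus seen in both clones and in neither parent, and the level in the SkBr3 clone was near the limit of detection.

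ZEB1 and ZEB2, which encode zinc finger homeobox repressors of CDH1, were below background on each of the 4 arrays. The ZEB1 signals lay between 2.8 and 3.47 and the ZEB2 signals between 3.31 and 4.33. Each gene had 1 probe, so that a change was not detectable in either clone at this signal, and transcripts outside the reach of the probe were not measured.

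TWIST1, a basic helix-loop-helix factor, was a BT474 gene in these arrays. Its brighter probe gave 19.3 in SkBr3, 39.8 in the SkBr3 clone, 2303 in BT474 and 16600 in the BT474 clone. The BT474 clone was 4.97-fold higher than its parent (log2 fold change 2.31), and the SkBr3 clone differed from SkBr3 by a log2 fold change of 0.15. The parents differed 114.9-fold (log2 6.84, or 5.07 with normexp correction). The second TWIST1 probe, at 85.2 in BT474 and 256.1 in the BT474 clone, gave a smaller change of 2.07-fold (log2 fold change 1.05) and was below background in both SkBr3 samples. Both probes put TWIST1 at least 2-fold higher in the BT474 clone, on arrays where CDH1 remained the bright signal described above. The second probe was only just past 2-fold. Median scaling moved the median log2 fold change of that clone by -0.22, which is more than this margin.

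VIM and FN1 encode the mesenchymal marker proteins of the set, and they ran against each other between the lines. VIM, whose product vimentin builds intermediate filaments, had signals of 26.4 in SkBr3, 166.5 in the SkBr3 clone, 19390 in BT474 and 9843 in the BT474 clone. It was 3.39-fold higher in the SkBr3 clone (log2 fold change 1.76, or 0.92 and so within 2-fold with normexp correction) and 2.86-fold lower in the BT474 clone (log2 fold change -1.52). The second VIM probe gave 16.4, 145.9, 16390 and 6841 in the same order, with log2 fold changes of at least 2.26 in the SkBr3 clone and of -1.80 in the BT474 clone. Even so, the SkBr3 clone signal stayed far under that of either BT474 sample. The parental lines differed 707.7-fold (log2 9.47, or 7.80 with normexp correction), a size that depends on a dim SkBr3 signal. VIM was therefore highest in the CDH1-positive line.

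FN1 encodes fibronectin, a glycoprotein of the extracellular matrix. Its brightest probe, printed 10 times, gave 7582 in SkBr3, 3883 in the SkBr3 clone, 34.3 in BT474 and 33.5 in the BT474 clone. The SkBr3 clone was 3.63-fold lower than SkBr3 (log2 fold change -1.86), which is many times the log2 SD of 0.04 among the spots on either SkBr3 array, although that SD covers error within an array only. The BT474 clone was 1.49-fold lower than BT474 at a signal where the spots had a log2 SD of 0.33 to 0.38. The other FN1 probes gave log2 fold changes of -1.93 and -1.64 in the SkBr3 clone and were below background in both BT474 samples, so all 3 probes placed FN1 lower in the SkBr3 clone. FN1 was 229.7-fold higher in SkBr3 than in BT474 (log2 of -7.84 for BT474 against SkBr3, or -6.47 with normexp correction).

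**Figure D2:**
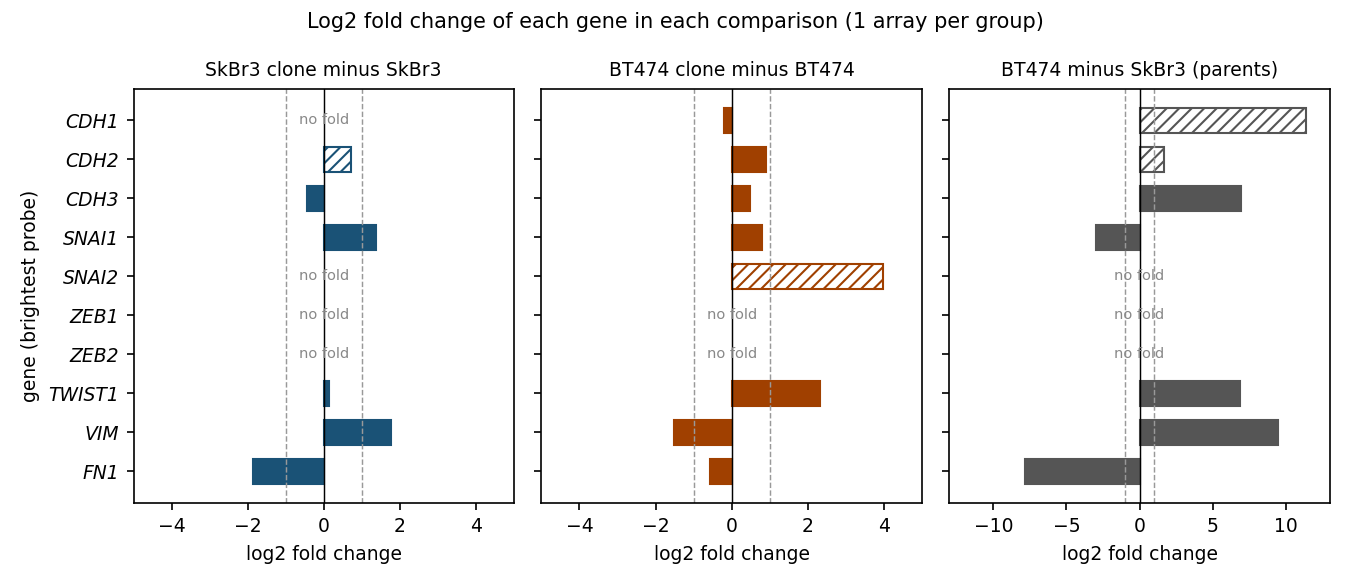
Log2 fold change of each gene in the SkBr3 clone against SkBr3, in the BT474 clone against BT474 and in parental BT474 against parental SkBr3, by its brightest probe. Hatched bars are limits, since 1 of the arrays was not well above background, "no fold" marks genes without a value, dashed lines lie at 2-fold, and the horizontal scale of the right panel is wider. In the clones SNAI2 reaches at least 3.98 in the BT474 clone and FN1 -1.86 in the SkBr3 clone, whereas CDH1 reaches at least 11.39 between the parents.

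To test for a difference shared by both clones, limma was fitted to 33084 probes with the cell line as a block, which leaves 1 residual degree of freedom. No probe passed an adjusted p of 0.05 (0% called, Benjamini-Hochberg), and 1167 probes, or 3.53%, had an unadjusted p below 0.05. Of the 12 member probes tested, SNAI2 alone had an unadjusted limma p below 0.05 (adjusted p = 1), with a mean log2 difference of 2.85 ± 0.93 (SE) that used its signals below background as measured. By the same limma fit CDH2 differed by 1.62 ± 0.59 and SNAI1 by 1.09 ± 0.47 (SE, adjusted p = 1 for both). For CDH2 the fit likewise used the SkBr3 signal below background as measured. The log2 difference of the SkBr3 pair was then 2.35, where the limit given above was 0.72. VIM, whose changes had opposite signs, differed by 0.12 ± 0.98 (SE, adjusted p = 1). None of the 10 genes is thus shown to change with resistance in both lines, and a p that misses the threshold does not show that they were unaltered.

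The genes whose pattern over the 4 arrays was nearest to a member were sought among 16398 named probes well above background throughout, by the Euclidean distance between mean-centered log2 levels. SNAI1 was nearest to STXBP6 (0.34), NR3C1 (0.36) and PSMB8 (0.43). CDH3 was nearest to SUSD3 (0.42), ARHGEF37 (0.58) and SMO (0.83), and FN1 to SLC52A1 (0.63), SLC45A3 (0.85) and SELENOM (0.88). TWIST1 was farther from its nearest genes, RGS11 (1.40), CDH3 (1.46) and ARHGEF37 (1.66), as was VIM from ZDHHC11 (1.45), CRYM (1.46) and HOXB13 (1.53). These distances rest on 4 arrays from 2 lines, and the other 5 members were not above background throughout and were not compared.

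Genes that work with the cadherins were lower in the SkBr3 clone than in its parent or within 2-fold of it. Of 11 catenin, nectin and other junction partner genes with a probe, 8 had a fold in the SkBr3 clone, 0 were at least 2-fold higher and 2 lower (11.2% and 14.9% of all probes), with a median log2 fold change of -0.78 against -0.12 for all probes. In the BT474 clone 9 had a fold, 0 were higher and 1 lower (9.68% and 5.59% of all probes), with a median of 0.19 against -0.03. CTNND2, which encodes δ-catenin, a binding partner of the cadherin tail, accounted for the largest difference. Its signal was 7143 in SkBr3, 16.8 in the SkBr3 clone, 5935 in BT474 and 4103 in the BT474 clone, a log2 fold change of -9.63 in the SkBr3 clone and of -1.07 in the BT474 clone, and its second probe gave at most -7.63 and -0.82. CTNND2 was the 1 lower partner of the BT474 clone, and under 4 alternatives its log2 fold change there was -0.90 to -0.99, which is within 2-fold. NECTIN1, an immunoglobulin-like adhesion molecule of the same junction, had a log2 fold change of -3.25 in the SkBr3 clone by its brighter probe and of -0.95 by the other, so that its probes disagreed on the size. VCL, the gene of vinculin, which links junctions to actin, had log2 fold changes of 0.14 and 0.68. The core catenins stayed within 2-fold in both clones by their brightest probes, with CTNNA1 at -0.36 and -0.29, CTNNB1 at -0.80 and -0.41 and JUP at -0.08 and 0.44, although a second CTNNA1 probe gave -1.10 in the BT474 clone.

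Of 19 other cadherins, 9 were below background on both SkBr3 arrays and 10 on both BT474 arrays. In the SkBr3 clone 2 were at least 2-fold higher and 2 lower, and in the BT474 clone 5 were higher and 1 lower, with medians over the 8 and 9 genes with a fold of 0.20 and 1.85 (-0.12 and -0.03 for all probes). The shares of all probes were 11.2% higher and 14.9% lower in the former and 9.68% and 5.59% in the latter. CDH11, the osteoblast cadherin, which is typical of mesenchymal cells, went from 26.4 in BT474 to 1263 in the BT474 clone (log2 fold change 5.04) and was below background in both SkBr3 samples. CDH16, the kidney-specific cadherin, was below background in both parents and gave 72.4 in the SkBr3 clone and 245.1 in the BT474 clone, at least 2.43-fold and at least 10.58-fold higher, but the SkBr3 clone stayed within 2-fold with normexp correction (log2 0.57) or with 16 added to each signal (log2 0.58). CDH5, the cadherin of endothelial junctions, went from 58.4 in SkBr3 to 915.3 in the SkBr3 clone (log2 fold change 3.08), CDH10 went the other way (log2 fold change -2.25), and both were below background in the BT474 pair. The largest measured difference of a cadherin in each clone was thus outside CDH1, CDH2 and CDH3.

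In the desmosome, the second cadherin-based junction of epithelia, 2 of 11 genes were at least 2-fold higher in the SkBr3 clone and 2 lower, and 0 were higher in the BT474 clone and 1 lower, with medians over 7 genes of -0.28 and 0.09. All probes had 11.2% higher and 14.9% lower in the SkBr3 clone and 9.68% and 5.59% in the BT474 clone, with medians of -0.12 and -0.03. DSC2, a desmosomal cadherin, was lower in both clones, with log2 fold changes of -1.22 and -1.27 from signals of 218.8 in SkBr3 and 266.0 in BT474, the former becoming -0.91 with normexp correction. DSC3 went from 4.47, below background, to 231.1 in the SkBr3 clone, at least 7.76-fold higher, and PKP2, the gene of a plaque protein, was 7.0-fold higher there. PKP1 was lower in the SkBr3 clone (log2 of at most -1.97, or -0.67 with normexp correction) and 1.95-fold higher in the BT474 clone.

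Among 12 further EMT transcription factors, 1 was at least 2-fold higher and 4 were lower in the SkBr3 clone, with a median over 8 of -0.72 (11.2% higher, 14.9% lower and a median of -0.12 for all probes), and 1 was higher and 1 lower in the BT474 clone, with a median over 10 of -0.40 (9.68%, 5.59% and -0.03 for all probes). TWIST2, the close relative of TWIST1, was below background in both SkBr3 samples and went from 45.8 in BT474 to 435.9 in the BT474 clone, a log2 fold change of 2.71. The TWIST genes were hence both at least 2-fold higher in the BT474 clone. GSC, the homeobox gene goosecoid, was 3.09-fold lower in the BT474 clone, at 702.0 against 1496. SOX9 and TCF4 were lower in the SkBr3 clone, with log2 fold changes of -3.09 and -2.09, and had values of -0.95 and 0.85 in the BT474 clone.

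Genes of epithelial identity kept their signal, since all 19 with a probe were well above background on each array. In the SkBr3 clone 1 was at least 2-fold higher and 3 lower, with a median log2 fold change of -0.36 (11.2%, 14.9% and -0.12 for all probes), and in the BT474 clone 1 was higher and 2 lower, with a median of -0.50 (9.68%, 5.59% and -0.03 for all probes). GRHL3, a grainyhead factor of epithelial differentiation, went from 1487 to 190.7 in the SkBr3 clone (log2 fold change -3.86) and from 216.0 to 1048 in the BT474 clone (log2 fold change 1.74). EHF, an epithelial ETS factor, had log2 fold changes of -1.88 and -0.55, and MUC1, an apical mucin, of 1.17 and -1.36. GRHL3 and MUC1 thus went opposite ways in the clones.

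Of 20 mesenchymal genes, 10 were at least 2-fold higher and 3 lower in the SkBr3 clone, where 11.2% and 14.9% of all probes were, with a median log2 fold change of 2.01 over the 17 with a fold, and 5 were higher and 2 lower in the BT474 clone, with a median of 0.16 over 14, where 9.68% and 5.59% of all probes were and the medians of all probes were -0.12 and -0.03. SPARC, a secreted matrix-associated glycoprotein, went from 9.95 to 6865 and MSN, the gene of the membrane-actin linker moesin, from 3.59 to 6778 in the SkBr3 clone, both from below background, at least 230.5-fold and 227.6-fold higher. The other 3 MSN probes were dimmer and gave log2 limits of 0.67 to 4.48, so that the probes differed in the size. In the BT474 pair MSN was below background and SPARC reached 28.0 in the BT474 clone. FSTL1, CALD1 and THBS1 were higher in both clones, with log2 fold changes of 2.97 and 2.18 for FSTL1, of 2.87 and at least 2.05 for CALD1 and of 2.01 and 1.25 for THBS1, by their brightest probes. In the BT474 clone, however, a second THBS1 probe gave 0.51, a second CALD1 probe was below background on both arrays, and CALD1 was within 2-fold with normexp correction (0.74). DKK1, a secreted WNT inhibitor, was lower in both, with a log2 of at most -5.18 and of -2.29, and the fibrillin gene FBN1 was lower in the SkBr3 clone (-2.82) and higher in the BT474 clone (2.23). The VIM and FN1 changes of the SkBr3 clone, 1 higher and 1 lower, thus stood beside a list in which more genes were higher than lower.

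Markers of stromal fibroblasts, a cell type that carries many mesenchymal transcripts, were examined beside these genes. Of 8 with a probe, 4 were below background on each array (COL1A2, DCN, LUM and PDGFRA), and 1, THY1, was above it on each. In the SkBr3 clone COL3A1 at 347.2 (from 4.10, at least 11.66-fold higher, although 2 further probes gave limits under 2-fold), PDGFRB at 64.8 and FAP at 35.4 were above background as well. The summed signal of the 8 relative to the 75th percentile was 1.51 in SkBr3, 1.26 in the SkBr3 clone, 1.13 in BT474 and 1.03 in the BT474 clone, but THY1 made up most of it. Without THY1 the other 7 summed to 0.028 in SkBr3, 0.23 in the SkBr3 clone, 0.025 in BT474 and 0.019 in the BT474 clone, and were thus higher in the SkBr3 clone than in its parent. Their part in the mesenchymal values of the SkBr3 clone was not tested. Of the 9 luminal markers, 0 were at least 2-fold higher and 3 lower in the SkBr3 clone (11.2% and 14.9% of all probes). In the BT474 clone 0 were higher and 0 lower (9.68% and 5.59% of all probes). FOXA1, ERBB2 and GRB7 were the lower ones, with log2 fold changes of -2.43, -1.90 and -1.195 in the SkBr3 clone. These genes had -0.75, -0.65 and -0.19 in the BT474 clone, and KRT7 had 0.21 in the SkBr3 clone and -0.87 in the BT474 clone. In these cultures a change per cell and a change in the share of cells that express a gene cannot be told apart.

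**Figure D3:**
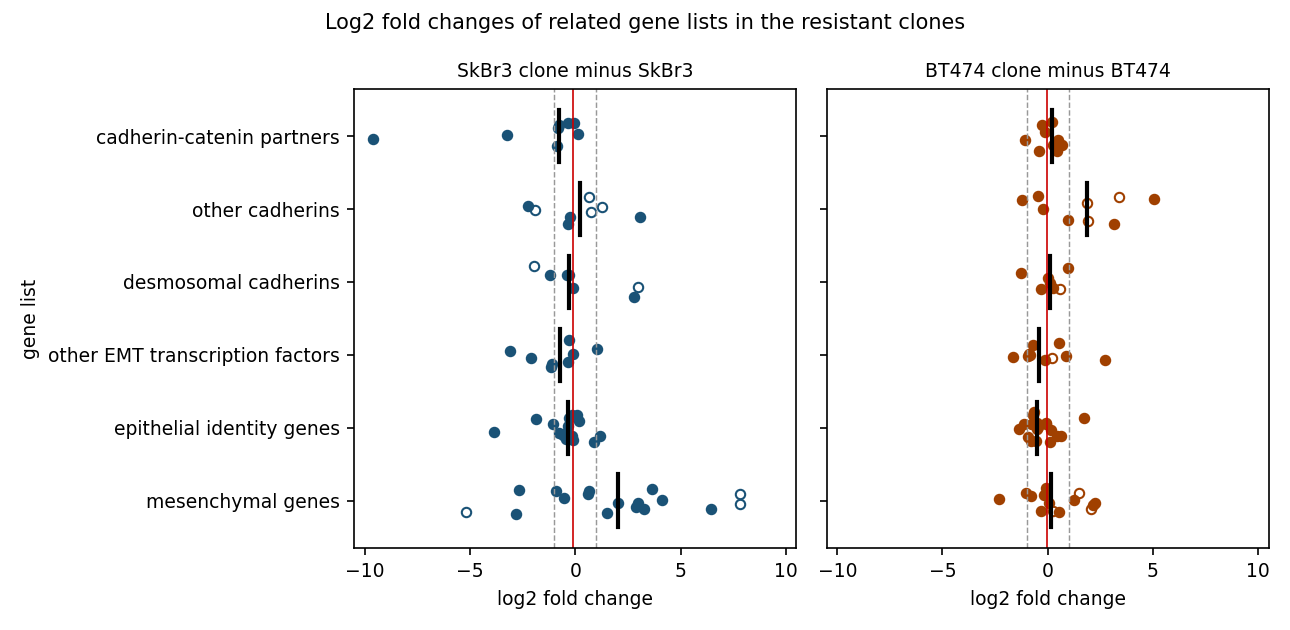
Log2 fold changes of the genes of 6 related lists in the SkBr3 clone and the BT474 clone, 1 point per gene with a fold and open points for limits. Black bars are list medians, the red line is the median of all probes and dashed lines lie at 2-fold. The mesenchymal list of the SkBr3 clone has its median at 2.01 with points from -5.18 to 7.85, while the catenin partners of the same clone have theirs at -0.78 with CTNND2 at -9.63, and in the BT474 clone the median of the other cadherins is at 1.85.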

How the data were processed

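The authors extracted total RNA and hybridized it to Agilent 4 × 44K human arrays. The deposited scanner files hold 43376 spots per array, and per the file headers the intensity values (processed Cy3 signal, background-subtracted) came from Feature Extraction 10.1.1.1. The methods name an earlier version, Cy3 or Cy5 and LOWESS, which these single-channel files do not show. The deposited log2 table of the authors held the same 41000 probes with column medians of -0.20 to 0.12, its centering being unstated, and its differences between arrays departed from those used here by medians of 0.00059 to 0.00141.

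Control spots were left out, spots of a probe were averaged on the log2 scale, and the 75th percentile of each array was subtracted. A probe was well above background if at least 50% of its spots carried that flag. Probes were named by matching accessions to RefSeq (23680 of 41000), and the brightest probe represented a gene. Python 3.11.15 with pandas 2.3.3, R 4.3.3 and limma 3.58.1 were used, and the scripts were tested on simulated data. Groups came from the sample labels. The members and gene lists were chosen with earlier results of these data known. Besides the members, genes named from a list were those changed at least 2-fold in the same direction in both clones (at most 4) and the 2 with the largest change in each clone, plus core catenins and GRB7 singled out after their values were seen. No list probe was matched for AFDN, GRHL1 and COL1A1. Alternatives covered scaling, background correction, the deposited table, an added signal of 16, outlier spots, filters, probe averaging and a 3-fold threshold. The number of arrays limits the precision, and 0 spots were saturated.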

Additional observations from a re-analysis of the deposited data

Results flagged for a closer look

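Among the members and the genes of the lists, 5 genes changed by at least 2-fold in opposite directions in the clones. How many of all probes did so was not counted, so the number has no background to be read against. None of these differences between the clones was tested, since each rests on 1 array per group. VIM had log2 fold changes of 1.76 in the SkBr3 clone and -1.52 in the BT474 clone. For CDH15, a cadherin at the edge of detection, the values were limits of -1.92 and 1.90. GRHL3 had -3.86 and 1.74. MUC1 had 1.17 and -1.36. FBN1 had -2.82 and 2.23.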

How the results depend on the processing

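By replicate number no paired analysis was possible because all 4 arrays carry the number 1. The cell line did pair each clone with its parent, as the block of the limma fit, and without it 431 probes in place of 1167 had an unadjusted p below 0.05. Under 10 alternatives, 201 of 204 member values kept their side of 2-fold, 2 were no longer past it and 1 passed it. The signal and background filters leave the value of a gene that passes them as it was. Probe averaging does the same for a gene with 1 probe, and the deposited table was nearly equal to the values used here. Part of this agreement was therefore fixed in advance. Among values past 2-fold, 0 reversed, but the sign of values within 2-fold was not counted. Such signs did change for CDH1 in the BT474 clone (-0.19, but 0.09 with quantile normalization and 0.10 with normexp correction). They also changed for TWIST1 in the SkBr3 clone (0.15, but -0.23 with 16 added to each signal). A 3-fold threshold, the other alternative, further left out SNAI1 in the SkBr3 clone and VIM in the BT474 clone. The count of members at least 2-fold higher in the SkBr3 clone went from 2 to 1 with normexp correction and quantile normalization, where VIM had a log2 fold change of 0.92, and to 1 at a 3-fold threshold, where SNAI1 was lost. In the BT474 clone the count higher went from 2 to 1 when genes had to be above background on all 4 arrays, which leaves out SNAI2, and the count lower from 1 to 0 at 3-fold. The parental count higher in BT474 went from 5 to 3 under the same background filter. CDH2 in the BT474 clone reached a log2 fold change of 1.00 when the percentile was taken over probes above background, and between the parents it was 0.72 with normexp. Of the 506 values of genes named from the lists under the same 10 alternatives, and with the same limit, 490 kept their side of 2-fold. A further 12 were no longer past it and 4 passed it, and 0 of those past 2-fold reversed. In limma 0 probes were called under any alternative run, with 431 to 1330 at an unadjusted p below 0.05. Signals close to background limit CDH2, SNAI2, ZEB1 and ZEB2 in every sample where they were dim. The same limit holds for CDH1, CDH3 and TWIST1 in both SkBr3 samples, VIM in parental SkBr3 and FN1 in both BT474 samples.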
